A study of Mus musculus with 10 samples.

Results

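Imprinted genes are genes that are expressed mainly or only from the copy inherited from the mother or only from the copy inherited from the father. A list of 46 such mouse genes from 19 loci was taken, and its members were looked up by symbol among the 43629 gene identifiers of the count tables. A symbol was found for 45 of them (Peg13 was not matched), and 42 had enough counts to be tested, of 17039 genes tested in all. The list was made by name and not by any measured value, but with earlier results of these data known.

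Imprinting is set in the germ line by DNA methylation of control regions. The mark is then kept on the same parental copy through the divisions of the embryo, with the help of DNA methyltransferases and of zinc finger proteins such as ZFP57 that hold repressive chromatin on the marked copy. Many imprinted genes lie in clusters that share a control region, and within a cluster paternally and maternally expressed genes and long non-coding RNAs often alternate. In the developing brain imprinted genes are known for roles in growth, in neuronal survival and in signalling. The reads counted here do not separate the parental copies, so each value is the sum over both, and none of the values below measures imprinting itself.

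RNA-seq libraries were made from total RNA of the dorsal telencephalon, the embryonic origin of the cerebral cortex, in C57BL/6 mouse embryos at E14.5. The 5 Dot1l-cKO samples carried 1 copy of a Cre recombinase allele (Cre/+) and floxed Dot1l on both copies (f/f). The 5 controls had no Cre (+/+) and 1 floxed copy of Dot1l (f/+). DOT1L is the methyltransferase of lysine 79 of histone H3, and the comparison asks which transcripts change when it is lost from the telencephalon. Each sample of a group was labelled a biological replicate, and controls were littermates. The groups differ in the Cre allele as well as in Dot1l, and the effects of these cannot be told apart. In bulk tissue, fewer cells of a type and less RNA per cell cannot be told apart either.

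Total counts were between 54202349 and 66556034 per sample. Values are counts per 1000000 (CPM) on the TMM scale of edgeR, and differences are log2 fold changes of Dot1l-cKO over control. The 4 libraries with replicate numbers 2 and 3 stood apart, with 0.0471% to 0.492% of counts in mitochondrial rRNA against 5.79% to 10.9% in the other 6, so results are also given within these 2 sets of libraries. Dot1l, counted over all its exons, was at 37.3 ± 4.04 CPM in controls, against 39.4 ± 11.7 CPM in Dot1l-cKO (SD, n = 5 each; log2 fold change 0.08, edgeR adjusted p = 0.864), and since the count does not single out the deleted part it does not check the labels. Among markers of cell types, 8 of 8 microglial genes increased (summed level 34.7 to 59.8 CPM in controls, 70.7 to 106.7 CPM in Dot1l-cKO). The 11 tested markers of ventral telencephalon and interneurons all had negative log2 fold changes, and 1 of them, Lhx6, named after its value was seen, passed the test (summed level 63.0 to 341.8 CPM against 18.3 to 114.2 CPM). The part of these cell types in the results below was not tested.

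A gene was called at an adjusted p under 0.05 in the edgeR quasi-likelihood test with Benjamini-Hochberg adjustment over all 17039 genes. Of the 42 imprinted genes tested, 5 were called (11.9%), against 7.11% of all genes, a rate at which 2.99 of 42 would be called. Grb10 and Peg12 decreased. Rasgrf1, Ndn and Ddc increased. The 3 increased are 7.14% of the tested members against 5.67% of all genes, and the 2 decreased are 4.76% against 1.44%. As a group the imprinted genes stayed near the middle of all genes. Their median log2 fold change was -0.02 (all genes -0.01), 19 were positive and 23 negative, and 29 of 42 (69.0%) lay within 0.25 of 0, against 67.2% of all genes. The values of the groups did not overlap for 3 members (7.14%), against 8.34% of all genes. DESeq2 called the same 5 members at a background of 10.4%. With the replicate number as a block, where 9.41% of all genes were called, 5 members were also called, of which 4 were shared, with Kcnq1ot1 in place of Ddc.

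**Figure D1:**
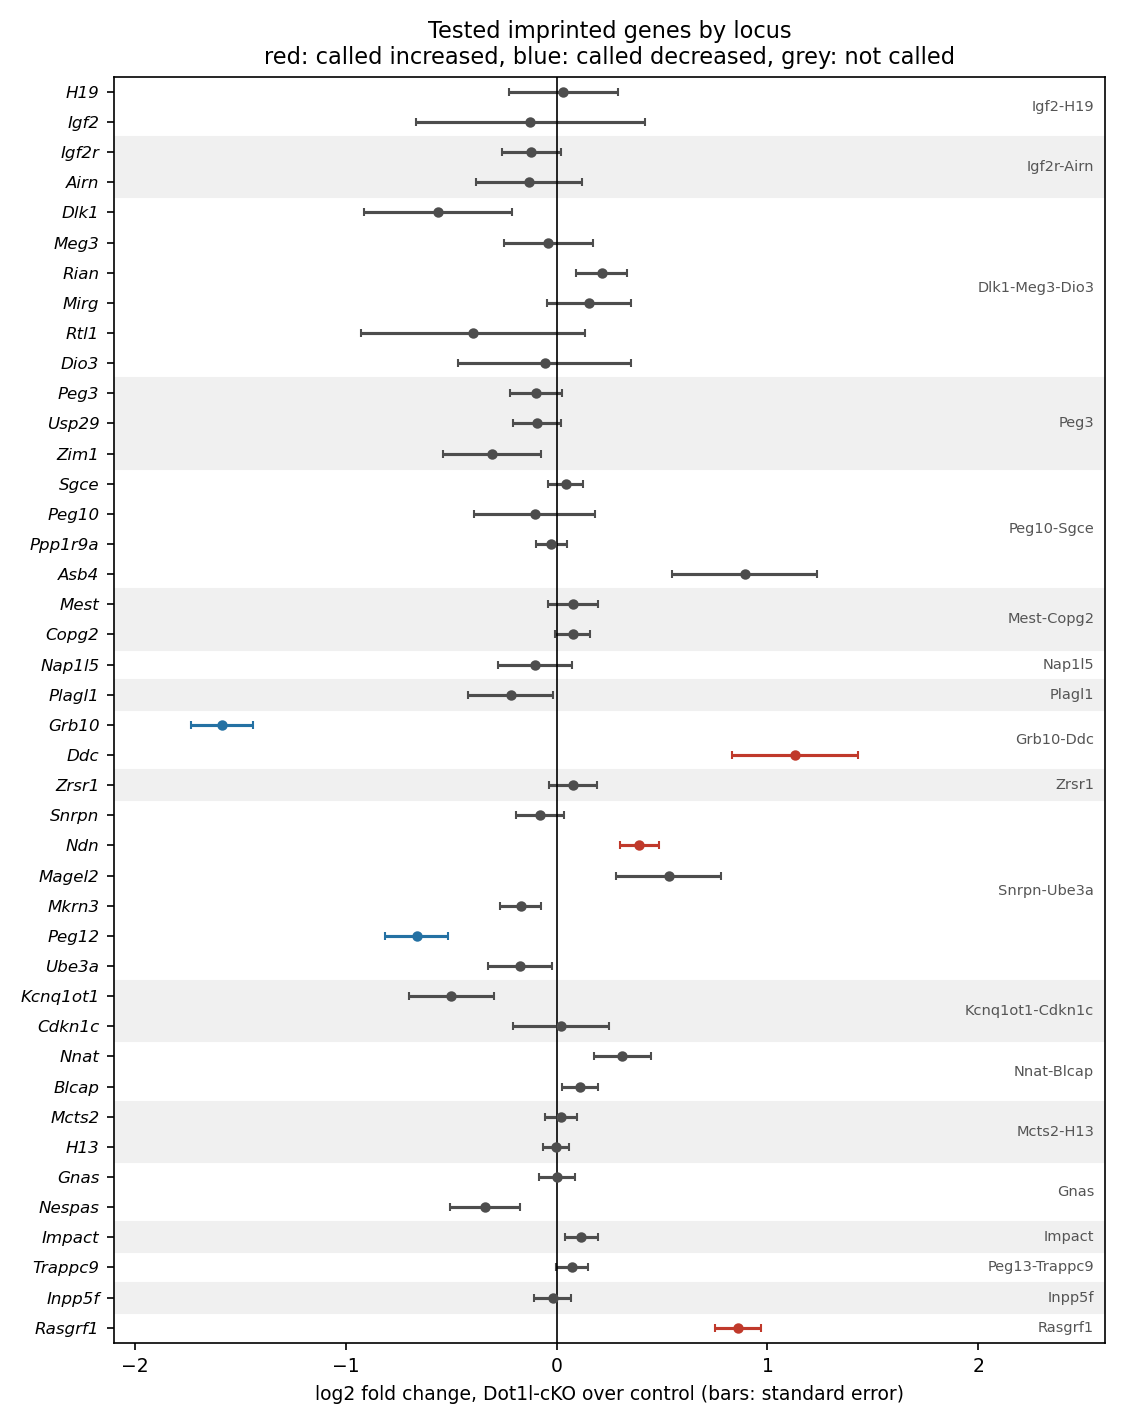
Log2 fold change of Dot1l-cKO over control (x axis) for the 42 tested imprinted genes (y axis), grouped by locus in shaded bands, with standard errors as bars and calls of the edgeR test in colour. Grb10 stands farthest from 0 at -1.59, followed by Ddc at 1.13, Asb4 at 0.89 and Rasgrf1 at 0.86, while 29 of the 42 lie within 0.25 of 0.

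The calls fell in 3 of the 19 loci. In the Grb10-Ddc locus and in the Snrpn-Ube3a locus, 1 gene rose and another fell, and the third locus was Rasgrf1 alone. By the parental copy each gene is known to be expressed from, 24 paternally expressed genes were tested, of which 2 rose and 1 fell (median log2 fold change -0.10). Of 8 maternally expressed genes tested, edgeR called 0, with 1 at an unadjusted p under 0.05, and DESeq2 and the replicate block called 0 as well (median 0.03). The other 10 genes, whose expressed copy depends on the tissue or transcript, held 2 calls. The shares called by edgeR were 12.5% of the paternal, 0% of the maternal and 20% of the other genes, against 7.11% of all genes. A difference between these sets was not tested.

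Levels can be compared between genes only per length of exon. On the scale of CPM per kb in controls, Nnat led by a wide margin at 846 CPM per kb. It encodes neuronatin, a small membrane protein of developing neurons. The next were Ndn at 81.3, Grb10 at 69.6, Gnas at 66.4 and Cdkn1c at 54.9 CPM per kb. The lowest was Phlda2 at 0.0162 CPM per kb, behind Rtl1 at 0.0477 CPM per kb. Of the 44 neighbouring pairs in the order of control levels, 42 had overlapping ranges over the 5 controls, so most neighbours in this order are not separated. Nnat was 1 of the exceptions, with 670.7 to 1010 CPM per kb against 72.0 to 98.3 for Ndn. The sum over the 45 matched genes was 5538 ± 310 CPM in controls, against 5545 ± 412 CPM in Dot1l-cKO (SD, n = 5 each). Nnat made up 27.9% of the summed control mean and Grb10 made up 11.4% of it, and in Dot1l-cKO these shares were 34.6% and 3.79%. Phlda2, Calcr and Slc22a18 were too low to be tested, with at most 59 counts in any sample.

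**Figure D2:**
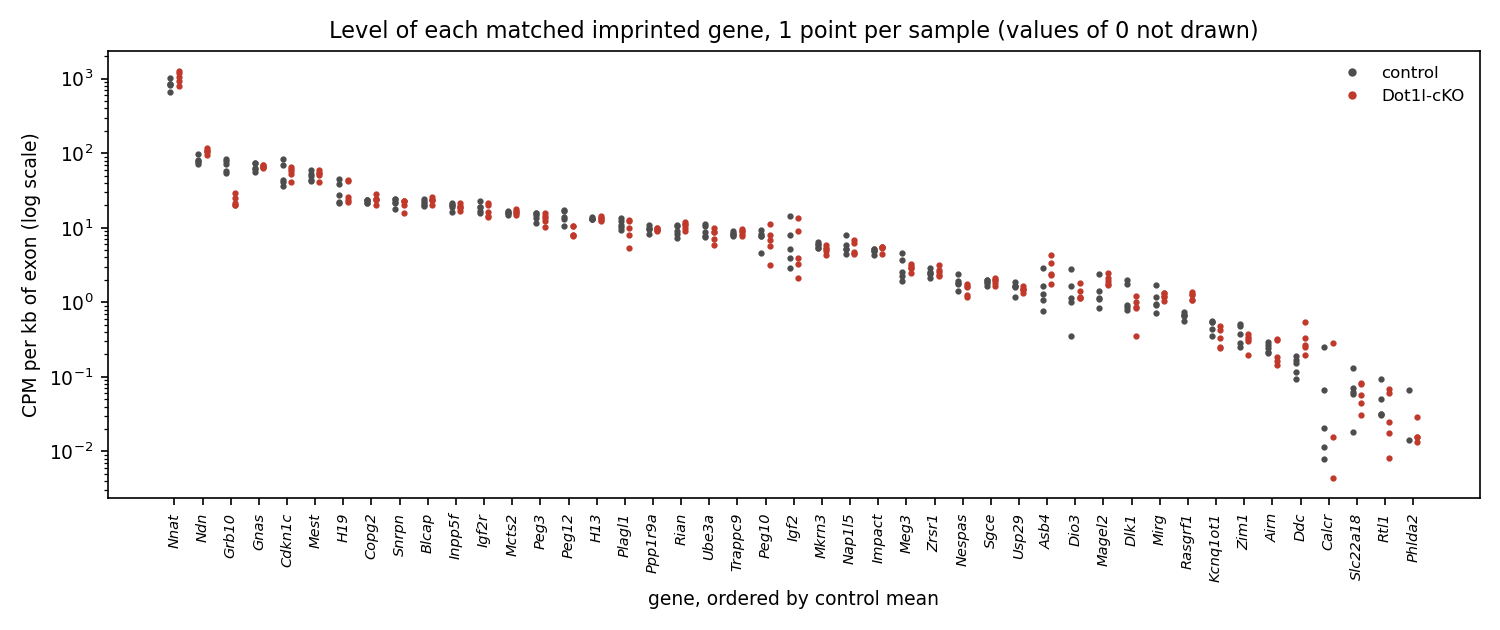
Level of the 45 matched imprinted genes in CPM per kb of exon (y axis, log scale), ordered by control mean, with 1 point per sample, controls in grey and Dot1l-cKO in red. Nnat lies above all others and Grb10 is the only gene among the 6 highest whose 2 groups of points separate, with 53.7 to 84.3 in controls and 20.2 to 28.9 CPM per kb in Dot1l-cKO.

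Grb10 encodes an adaptor protein that binds the insulin and IGF1 receptors and restrains growth, and it is known to be expressed from the maternal copy in most tissues and from the paternal copy in neurons. The 2 copies use different promoters. The gene lies on chromosome 11 from 11930508 to 12038683 (mm10), on the minus strand. A pair of RefSeq start windows of the gene are shown because its counts add transcripts from all starts, so that the change below cannot be given to either. Each runs from 250 bases before to 50 after a start on GRCm38.p6. Capitals mark TGCCGC or its reverse complement GCGGCA, the letters in which ZFP57 recognises methylated DNA.
Grb10, chr11:12037371-12037670, minus strand: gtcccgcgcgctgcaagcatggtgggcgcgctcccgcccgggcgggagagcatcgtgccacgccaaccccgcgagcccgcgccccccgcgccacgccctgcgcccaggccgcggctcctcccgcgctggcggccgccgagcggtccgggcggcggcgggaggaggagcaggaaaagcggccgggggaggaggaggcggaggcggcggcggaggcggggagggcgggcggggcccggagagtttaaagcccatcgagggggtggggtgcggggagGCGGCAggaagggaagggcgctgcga
Grb10, chr11:12027922-12028221, minus strand: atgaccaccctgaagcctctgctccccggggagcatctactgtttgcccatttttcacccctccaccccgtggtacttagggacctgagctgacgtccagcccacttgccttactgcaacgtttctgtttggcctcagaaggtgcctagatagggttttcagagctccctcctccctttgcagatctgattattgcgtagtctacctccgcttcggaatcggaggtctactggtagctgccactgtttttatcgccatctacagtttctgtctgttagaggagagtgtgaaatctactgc
The first window is 80.0% G and C with 45 CpG and holds 1 match, and the other is 52.3% G and C with 9 CpG and holds 0. Of the windows of members found in the RefSeq table, 13 of 54 (24.1%, from 12 of 37 genes) held the letters on either strand, against 3813 of 32851 windows of all genes (11.6%). The 12 genes were Mcts2, Nnat, Calcr, Mest, Copg2, Nap1l5, Zim1, Snrpn, Igf2, Plagl1, Grb10 and Meg3. Of the 5 called members, Grb10 alone was among them. A match of letters is a description of the window and says nothing of binding.

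Grb10 had the largest change of the imprinted genes tested. In controls 1 to 5 it was at 659, 719, 766, 531 and 488 CPM. Dot1l-cKO samples 1 to 5 were at 196, 184, 226, 184 and 263 CPM. All 5 Dot1l-cKO samples lay below all controls, and the lowest control was higher than the highest Dot1l-cKO sample by 488 to 263 CPM. The means were 633 ± 119 and 210.4 ± 33.9 CPM (SD, n = 5 each), a ratio of 0.332. The log2 fold change was -1.59 (standard error 0.15, edgeR adjusted p = 0.00018), with 10366 to 51186 counts per sample behind it. Without replicates 2 and 3 it was -1.39 (edgeR adjusted p = 0.00782). In replicates 2 and 3 alone, 2 samples against 2, it was -1.84 (edgeR adjusted p = 0.0609). Over the fits that left out 1 sample it was between -1.69 and -1.51, and the call was kept in all 10. The summed ventral markers had a lower range in Dot1l-cKO too, with 63.0 CPM in control 3 and 114.2 CPM in Dot1l-cKO 1, and their part in the change of Grb10 was not tested.

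Ddc shares the locus and lies next to Grb10, on chromosome 11 from 11814101 to 11898144 on the minus strand. It encodes the decarboxylase that makes dopamine and serotonin, and it moved in the opposite direction at a low level. Controls 1 to 5 were at 0.523, 0.860, 0.419, 0.685 and 0.758 CPM. The Dot1l-cKO samples were at 2.45, 1.18, 1.14, 1.49 and 0.870 CPM. The groups did not overlap, but the gap between the highest control and the lowest Dot1l-cKO sample was 0.860 to 0.870 CPM, and counts were 26 to 130 per sample. The log2 fold change was 1.13 (standard error 0.30, edgeR adjusted p = 0.0434). The call was lost with the replicate block (log2 fold change 1.07, edgeR adjusted p = 0.0678) and also with sex as a covariate (adjusted p = 0.0820), no low-count filter (adjusted p = 0.0580), limma on the normalised counts (adjusted p = 0.0527) or a block for the number that opens the table headers (adjusted p = 0.0668). It was lost on leaving out any single sample but Dot1l-cKO 5, with edgeR adjusted p between 0.0541 and 0.112. Within the 2 sets of libraries it was 1.27 (edgeR adjusted p = 0.109) without replicates 2 and 3 and 0.88 (adjusted p = 0.400) in these alone. Of the 6 other genes tested within 1000000 bases of each gene, edgeR called 0.

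**Figure D3:**
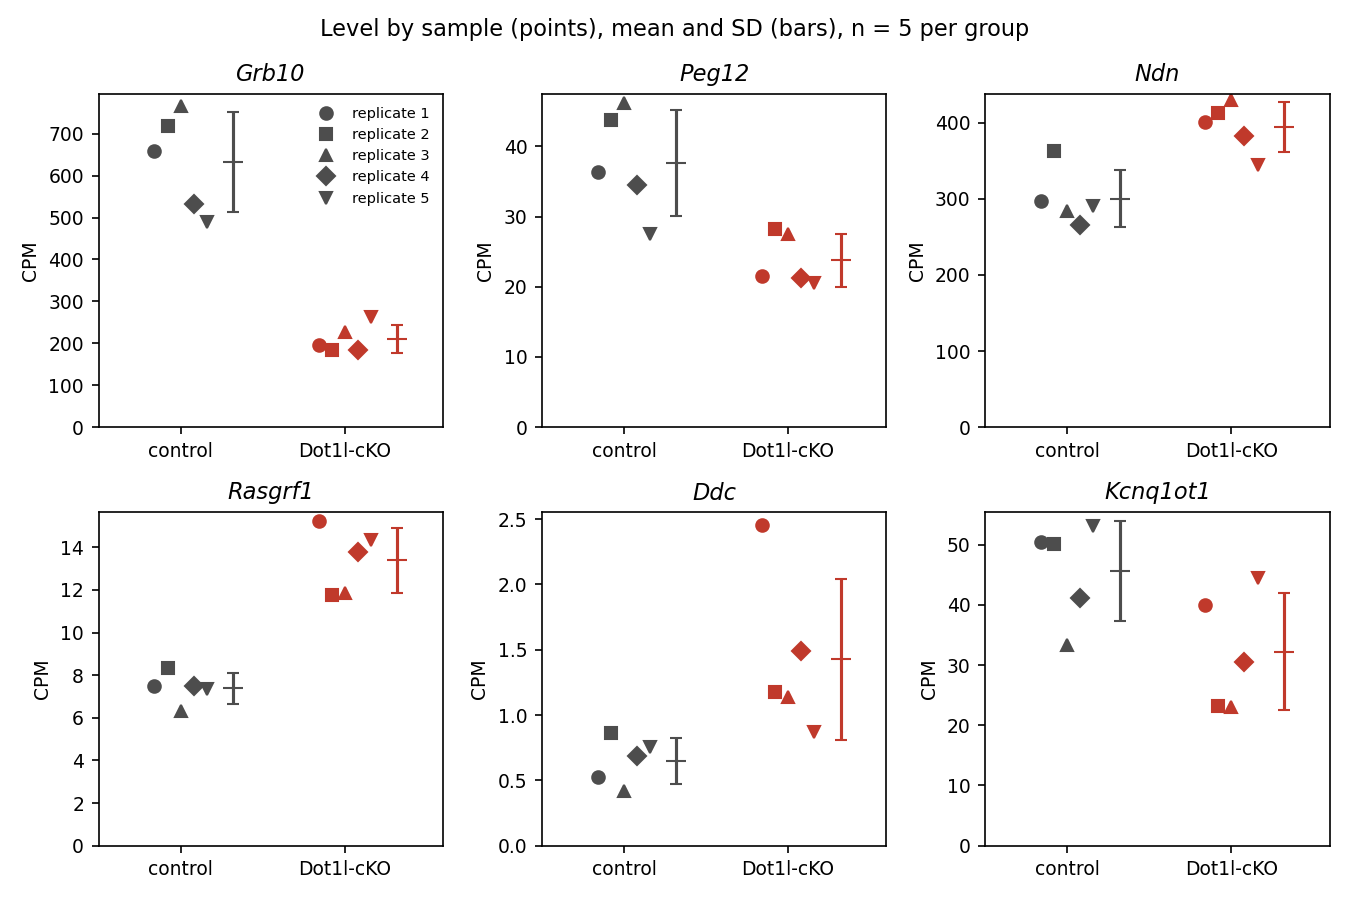
Level in CPM (y axes, from 0) of the 5 called members and of Kcnq1ot1 in controls (grey) and Dot1l-cKO (red), with 1 symbol per replicate number and the mean and SD beside the points (n = 5 per group). Grb10, Rasgrf1 and Ddc show no overlap, Ndn and Peg12 overlap in 1 control and 1 or 2 Dot1l-cKO samples, and Kcnq1ot1 overlaps more widely, from 33.3 to 53.1 CPM in controls and from 23 to 44.4 CPM in Dot1l-cKO.

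Rasgrf1 encodes a guanine nucleotide exchange factor that activates Ras downstream of calcium signals in neurons and is expressed from the paternal copy. It lies on chromosome 9 from 89909908 to 90026977. Its levels were 7.48, 8.31, 6.30, 7.47 and 7.36 CPM in controls 1 to 5 and 15.2, 11.8, 11.9, 13.8 and 14.3 CPM in Dot1l-cKO 1 to 5. Every Dot1l-cKO sample lay above every control. The means were 7.39 ± 0.716 and 13.4 ± 1.53 CPM (SD, n = 5 each), and the log2 fold change was 0.86 (standard error 0.11, edgeR adjusted p = 0.00104). It was 0.95 (edgeR adjusted p = 0.00643) without replicates 2 and 3 and 0.71 (adjusted p = 0.226) in these alone, and no fit that left out 1 sample lost the call. Microglial markers rose as well, and their part in the change of Rasgrf1, Ndn and Ddc was not tested. Of 8 other genes tested within 1000000 bases, edgeR called 0.

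The Snrpn-Ube3a locus on chromosome 7 is the region whose human counterpart is lost in Prader-Willi and Angelman syndromes. Its 6 tested members moved in different directions. Ndn encodes necdin, a MAGE family protein that promotes neuronal differentiation and survival, and is expressed from the paternal copy. The gene lies from 62346569 to 62350262 on the plus strand. Controls 1 to 5 were at 298, 363, 285, 266 and 290.4 CPM, and Dot1l-cKO 1 to 5 at 401, 412, 430.1, 382 and 345 CPM. The groups overlapped only in that control 2 lay above Dot1l-cKO 5. The means were 300.3 ± 37.0 and 394 ± 32.5 CPM (SD, n = 5 each), and the log2 fold change was 0.39 (standard error 0.09, edgeR adjusted p = 0.0275). The direction held in every fit, but the test was close to its threshold. The call was lost with sex as a covariate (edgeR adjusted p = 0.0524) or no low-count filter (adjusted p = 0.0530), and it was kept on leaving out control 2 (adjusted p = 0.00902) or Dot1l-cKO 5 (adjusted p = 0.0235) and lost on leaving out any other sample (adjusted p 0.0509 to 0.0763). It was 0.40 both without replicates 2 and 3 (edgeR adjusted p = 0.0431) and in these alone (adjusted p = 0.322).

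Peg12, also called Frat3, encodes a protein of the FRAT family, which binds GSK3 in Wnt signalling, and is expressed from the paternal copy. It lies from 62461871 to 62464510 on the minus strand of chromosome 7. It fell where Ndn rose. Controls 1 to 5 were at 36.4, 43.7, 46.2, 34.4 and 27.5 CPM. The Dot1l-cKO samples were at 21.5, 28.2, 27.5, 21.2 and 20.5 CPM. Only control 5 lay within the range of the Dot1l-cKO samples. The means were 37.7 ± 7.51 and 23.8 ± 3.75 CPM (SD, n = 5 each), and the log2 fold change was -0.66 (standard error 0.15, edgeR adjusted p = 0.0214). The call was lost on leaving out control 2 (edgeR adjusted p = 0.0560), Dot1l-cKO 1 (adjusted p = 0.0607) or Dot1l-cKO 4 (adjusted p = 0.0593). The log2 fold change was -0.64 without replicates 2 and 3 (edgeR adjusted p = 0.0256) and -0.67 in these alone (adjusted p = 0.122). Paralogs of the gene, Frat1 and Frat2, lie elsewhere, and how reads that match several places were treated is not given in the sources used here.

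The other 4 tested genes of the locus were not called. Magel2, a relative of Ndn, was at 6.42 ± 2.82 CPM in controls, against 9.28 ± 1.44 CPM in Dot1l-cKO (SD, n = 5 each; log2 fold change 0.53, edgeR adjusted p = 0.257). Snrpn, which encodes a core protein of the spliceosome, was at 47.4 ± 5.69 and 44.9 ± 6.27 CPM (log2 fold change -0.08, edgeR adjusted p = 0.756). Mkrn3, a ubiquitin ligase gene known for its part in the timing of puberty, had a log2 fold change of -0.17. Ube3a, the ubiquitin ligase gene expressed from the maternal copy in neurons, had one of -0.18. Snurf and Gm38393 share exon bases with Snrpn on the same strand. The overlaps sum to 805 bases, where Snrpn has 2159 exon bases. Snurf was at 0 counts in all libraries. How reads over the shared exons were counted is not given in the sources used here, so the counts of Snrpn may lack them. Within 1000000 bases of Ndn or Peg12, Chrna7, which is not on the list, was named after its value was seen and encodes a nicotinic acetylcholine receptor subunit, was also called (log2 fold change -0.90, edgeR adjusted p = 0.000649).

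A change in a pair of genes of the same locus relative to each other was tested on the log2 ratio of their counts within each sample, which does not depend on library scaling. The log2 ratio of Ndn to Snrpn was 2.51, 2.98, 2.89, 2.45 and 2.48 in controls 1 to 5. In Dot1l-cKO 1 to 5 it was 3.04, 3.06, 3.14, 3.15 and 3.32. The groups did not overlap, and the ratio was higher in Dot1l-cKO in 5 of 5 pairs of the same replicate number. The means were 2.66 ± 0.252 and 3.14 ± 0.108 (SD, n = 5 each), a difference of 0.48. The exact two-sided permutation test gave p = 0.00794, the smallest it can give with 5 against 5, and p = 0.0635 after Benjamini-Hochberg adjustment over the 8 ratios. No ratio passed after adjustment. A ratio that is alone at the smallest p adjusts to 0.0635 over 8 ratios. The adjusted test therefore could not call Ndn to Snrpn by itself, and its result says nothing against a difference.

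**Figure D4:**
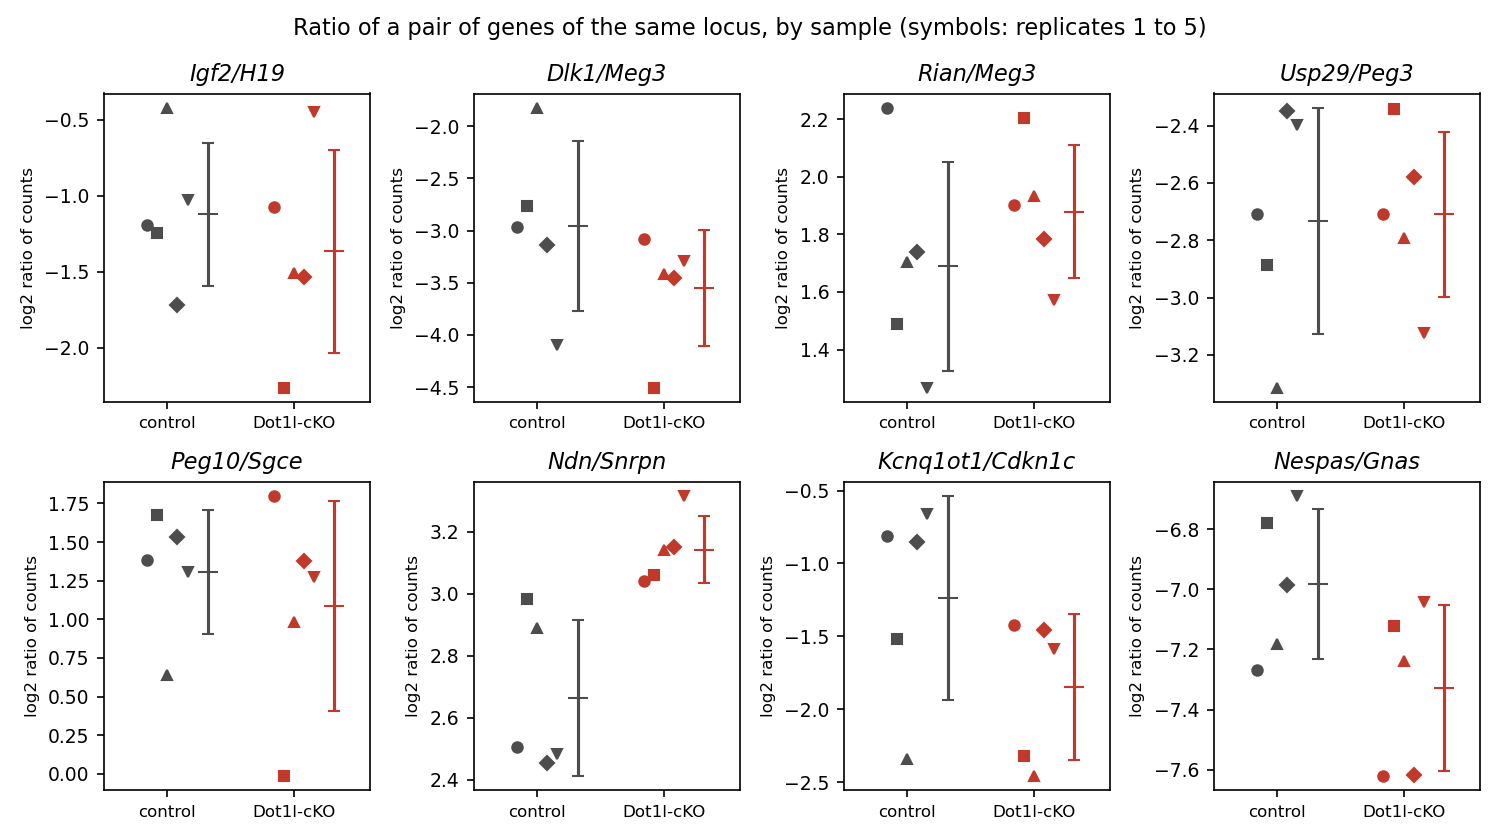
Log2 ratio of the counts of a pair of genes of the same locus (y axes) in controls (grey) and Dot1l-cKO (red) for 8 pairs, with 1 symbol per replicate number and the mean and SD beside the points (n = 5 per group). Ndn/Snrpn separates the groups, at 2.45 to 2.98 against 3.04 to 3.32, and the other 7 pairs overlap.

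Of the other 7 ratios, Nespas to Gnas had the lowest p. Gnas encodes the stimulatory G protein alpha subunit, and Nespas is an antisense RNA of its locus on chromosome 2, counted on the opposite strand. The mean log2 ratio was -6.98 ± 0.249 in controls and -7.33 ± 0.275 in Dot1l-cKO (SD, n = 5 each). The difference was -0.35, lower in 5 of 5 pairs, with p = 0.0952 in the exact permutation test and 0.381 after adjustment. Gnas itself was level, at 743 ± 91.3 and 743 ± 34.3 CPM (log2 fold change 0.00, edgeR adjusted p = 0.995). Nespas was at 5.92 ± 1.14 and 4.67 ± 0.815 CPM (log2 fold change -0.34, edgeR adjusted p = 0.274).

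Kcnq1ot1 is the long non-coding RNA of the locus of Cdkn1c on chromosome 7, transcribed from the paternal copy, where it silences neighbours that the maternal copy expresses. Its levels were 50.5, 50.1, 33.3, 41.1 and 53.1 CPM in controls, against 40.0, 23.2, 23, 30.6 and 44.4 CPM in Dot1l-cKO. Each Dot1l-cKO sample lay below the control of the same number, although the groups overlapped. Its log2 fold change was -0.50 (standard error 0.20, edgeR adjusted p = 0.182). With the replicate block it was -0.53 and passed the test (edgeR adjusted p = 0.0364). Cdkn1c, the maternally expressed gene of the cell cycle inhibitor p57, was at 88.8, 144, 169, 74.2 and 83.9 CPM in controls, against 107, 116, 126, 84.0 and 134 CPM in Dot1l-cKO. Its groups overlapped over nearly their whole range, with a log2 fold change of 0.02 (standard error 0.23, edgeR adjusted p = 0.975). The log2 ratio of Kcnq1ot1 to Cdkn1c was -1.24 ± 0.700 in controls and -1.85 ± 0.5 in Dot1l-cKO (SD, n = 5 each), lower in 5 of 5 pairs, and the difference of -0.61 did not pass (exact permutation p = 0.175, adjusted p = 0.466).

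The Igf2-H19 locus, also on chromosome 7, holds the paternally expressed growth factor gene Igf2 and the maternally expressed non-coding RNA H19. Igf2 was at 29.9, 22.5, 83.5, 16.7 and 46.1 CPM in controls, against 51.4, 12.2, 22.3, 19 and 77.5 CPM in Dot1l-cKO. H19 was at 68.3, 53.4, 112, 54.9 and 94.0 CPM in controls, against 108, 58.3, 63.4, 55.0 and 106 CPM in Dot1l-cKO. Both genes were highest in control 3 and in Dot1l-cKO 1 and 5, and the spread within each group was far larger than the difference between them. The summed level of 10 markers of meninges and mesenchyme ran from 26.4 to 883 CPM in controls and from 32 to 812 CPM in Dot1l-cKO, and it too was highest in control 3 and Dot1l-cKO 5. So were the sums for erythroid cells, endothelium and pericyte, choroid plexus and hem, microglia and cortical progenitors. The sums for cortical neurons, ventral telencephalon and hypothalamus were not. The part of any of these cell types in Igf2 and H19 was not tested. The log2 fold change was -0.12 for Igf2 (standard error 0.54, edgeR adjusted p = 0.927) and 0.03 for H19 (standard error 0.26, edgeR adjusted p = 0.964). For Igf2 it was 0.68 without replicates 2 and 3 and -1.60 in these alone. The log2 ratio of Igf2 to H19 differed by -0.25 (exact permutation p = 0.516, adjusted p = 0.653).

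**Figure D5:**
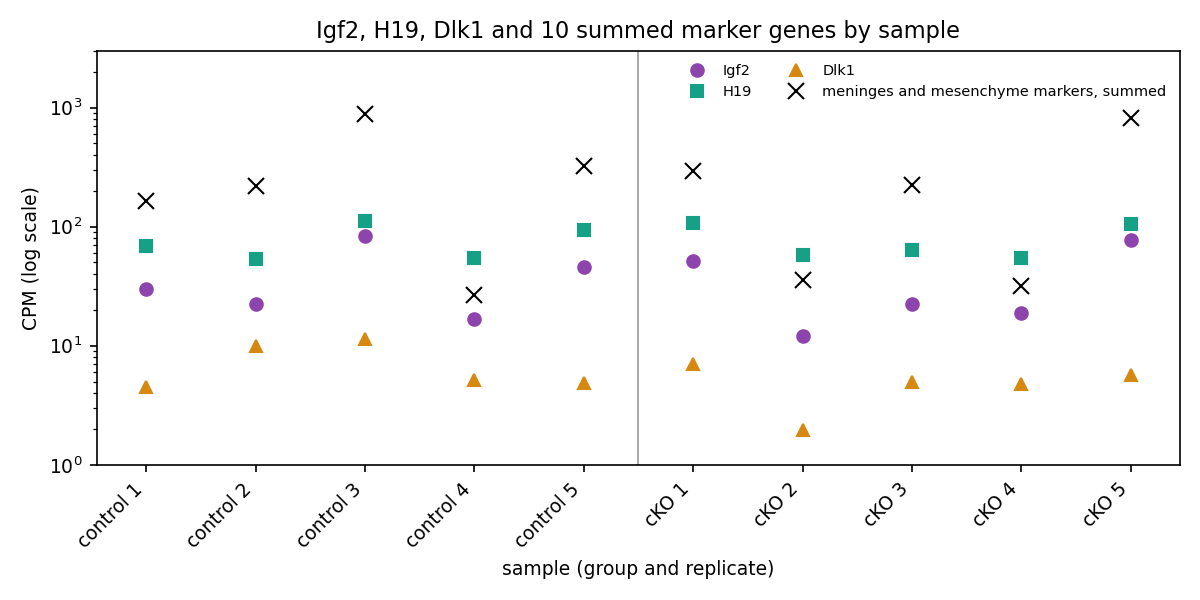
Level in CPM (y axis, log scale) of Igf2, H19 and Dlk1 and the summed level of 10 markers of meninges and mesenchyme in each of the 10 samples (x axis). The marker sum runs from 26.4 to 883 CPM, and Igf2 is highest in the same samples, control 3 at 83.5 CPM and Dot1l-cKO 5 at 77.5 CPM. Sums of several other marker lists, not drawn, were highest in these samples too.

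The Dlk1-Meg3-Dio3 locus on chromosome 12 held no call among its 6 genes, which encode paternally expressed proteins and maternally expressed long RNAs. Rian, a maternally expressed host of snoRNAs and the gene of highest level there by CPM, was at 166, 190.5, 132, 152 and 201 CPM in controls, against 221, 208, 202, 180 and 166 CPM in Dot1l-cKO (log2 fold change 0.21, standard error 0.12, edgeR adjusted p = 0.364). Meg3, the maternally expressed RNA that opens the cluster, had one of -0.04 (edgeR adjusted p = 0.943). Small RNA genes nested in Rian, Meg3 and Mirg share exon bases with them on the same strand. How reads over these bases were counted is not given in the sources used here. Dlk1, which encodes a transmembrane ligand of the Delta family, was at 4.48, 9.95, 11.4, 5.19 and 4.87 CPM in controls, against 6.98, 1.98, 4.94, 4.75 and 5.69 CPM in Dot1l-cKO. The 2 highest values were in controls 2 and 3, and the other controls lay among the Dot1l-cKO samples. Its log2 fold change was -0.56 (standard error 0.35, edgeR adjusted p = 0.415). It was 0.25 without replicates 2 and 3 and -1.61 in these alone, and an edgeR test of that difference, added after seeing the data, had an adjusted p of 0.728 (unadjusted 0.0020). Dlk1 was not alone in this. In the same edgeR test 9 tested members had an unadjusted p under 0.05, Igf2 among them (0.0353), and the lowest adjusted p was 0.728. The share of all genes at that unadjusted threshold was not worked out. The log2 ratio differed by -0.59 for Dlk1 to Meg3 (exact permutation p = 0.254, adjusted p = 0.508) and by 0.19 for Rian to Meg3 (exact permutation p = 0.341, adjusted p = 0.546).

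In the Peg10-Sgce locus on chromosome 6, Asb4, which encodes a subunit of a ubiquitin ligase and is expressed from the maternal copy, had the largest log2 fold change among the 37 tested members that were not called. Its levels were 5.07, 11.3, 6.57, 4.2 and 3.03 CPM in controls, against 17.0, 9.54, 13.4, 6.88 and 9.15 CPM in Dot1l-cKO. Control 2 lay above 3 of the Dot1l-cKO samples, and the other 4 controls were below all of them. The log2 fold change was 0.89 (standard error 0.35, edgeR adjusted p = 0.166), and without control 2 it was 1.24 and passed (edgeR adjusted p = 0.0378). Ppp1r9a, an actin-binding protein gene of synapses, was at 141 ± 13.3 and 139 ± 4.36 CPM (SD, n = 5 each; log2 fold change -0.03, edgeR adjusted p = 0.886). Peg10, a gene derived from a retrotransposon, ranged from 30.6 to 61.7 CPM in controls and from 20.8 to 74.5 CPM in Dot1l-cKO, and Sgce, the sarcoglycan gene beside it, from 17.8 to 21.1 and 17.8 to 22.2 CPM. Their log2 ratio differed by -0.22 (exact permutation p = 0.571, adjusted p = 0.653).

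Nnat, the imprinted gene of highest level, on chromosome 2 within an intron of Blcap, was at 1576, 1560, 1227, 1529 and 1846 CPM in controls. In Dot1l-cKO it was at 2316, 1725, 1904, 2175 and 1479 CPM. It was higher in Dot1l-cKO in 4 of 5 pairs and lower in the fifth, and the groups overlapped. Its log2 fold change of 0.31 (standard error 0.14) had an unadjusted p of 0.0412 and did not pass (edgeR adjusted p = 0.219). For Blcap the log2 fold change was 0.11 (edgeR adjusted p = 0.513).

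The remaining loci showed smaller differences, and in none was a gene called. Peg3, a paternally expressed zinc finger gene, was at 191 ± 24.4 CPM in controls, against 178 ± 28.2 CPM in Dot1l-cKO (SD, n = 5 each; log2 fold change -0.10, edgeR adjusted p = 0.714), and the log2 ratio of Usp29 to Peg3 differed by 0.02 (exact permutation p = 0.921, adjusted p = 0.921), a value between -0.32 without replicates 2 and 3 and 0.53 in these alone. Mest, a paternally expressed hydrolase gene, was at 195 ± 28.2 and 206 ± 28.3 CPM (log2 fold change 0.08, edgeR adjusted p = 0.769). Igf2r, the receptor that clears IGF2 from the cell surface and the maternally expressed partner of the RNA Airn, was at 175 ± 25.9 and 161 ± 31.3 CPM (log2 fold change -0.12, edgeR adjusted p = 0.688). H13, which encodes signal peptide peptidase and harbours Mcts2 in an intron, was at 118 ± 3.85 and 118 ± 7.5 CPM (log2 fold change -0.00, edgeR adjusted p = 0.992). Trappc9, a gene of vesicle transport, was at 66.0 ± 3.82 and 69.5 ± 6.15 CPM (log2 fold change 0.07, edgeR adjusted p = 0.634). Mcts2, Zrsr1 and Nap1l5 arose as retrocopies of other genes, and how reads that match those genes too were treated is not given in the sources used here. Over the 37 tested members not called, log2 fold changes ran from -0.56 to 0.89, and those of 3 of them, Asb4, Magel2 and Dlk1, were over 0.5 in size.

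A pair of further lists describe the setting of these genes. The other list of imprinted genes had 52 names, most of them with imprinting known from placenta or single tissues, and 41 were tested, 2 of its names (Dlx5 and Dcn) being also among the markers of cell types. Of these, 5 were called and all 5 increased (12.2%), with a median log2 fold change of 0.11. Of all genes 5.67% increased and 7.11% were called in either direction. They were Ampd3, the AMP deaminase of red cells (log2 fold change 1.08, edgeR adjusted p = 0.0162), Pon3, a paraoxonase gene (0.76, adjusted p = 0.0414), Adam23, a membrane protein gene of neurons (0.40, adjusted p = 0.0416), Phactr2, a regulator of phosphatase and actin (0.39, adjusted p = 0.0464) and Osbpl5, a lipid transfer protein gene (0.34, adjusted p = 0.0235). With the replicate block 4 of the 41 were called, against 9.41% of all genes, and DESeq2 called 5, against 10.4%. Leaving out 1 sample lost the call of Pon3 in 9 of 10 fits, of Phactr2 in 8, of Adam23 in 7, of Osbpl5 in 4 and of Ampd3 in 0.

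The list of genes that maintain imprints and DNA methylation had 30 names, of which 28 were tested. It includes DNA methyltransferases, zinc finger factors and Polycomb subunits. By edgeR 0 of the 28 were called, against 7.11% of all genes, with 4 at an unadjusted p under 0.05. DESeq2 called 2, Setdb1 and Eed, against 10.4% of all genes. The fit with the replicate block, where 9.41% of all genes were called, called 4, Hells, Eed, Ezh2 and Suz12, all with negative log2 fold changes. These genes were named after their values were seen. The log2 fold change was negative for 26 of the 28, with a median of -0.16 and a range from -0.45 to 0.23, against 8717 of 17039 negative among all genes. Among 8 markers of cortical progenitors, Pax6 decreased and Vim increased. The summed level of the 8 was 1623 to 2131 CPM in controls and 2102 to 2330 CPM in the Dot1l-cKO samples. Yet 5 of the 8 had negative log2 fold changes, with a median of -0.24. The part of progenitors in the values of the list was not tested.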

How the data were processed

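RNA-seq of 5 control and 5 Dot1l-cKO samples was analysed. Per the labels and the study's methods, the authors made stranded libraries of rRNA-depleted total RNA, sequenced paired ends, trimmed them with Trim Galore 0.2.8, mapped them to mm10 with TopHat2 2.0.9 and counted genes of Ensembl 79 with HTSeq 0.6.0 in reverse-stranded mode. The deposited counts are whole numbers, not normalised. The deposited normalised values are a signal, the counts divided by the authors' DESeq2 (1.6.1) size factors, and served as an alternative with limma 3.58.1 after adding 1.

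Identifiers were matched to symbols of GENCODE vM21 (42462 of 43629; the rest held 0.268% of the counts), whose coordinates are given. edgeR 4.0.16 in R 4.3.3 was run with filterByExpr at its defaults, TMM and the quasi-likelihood test of genotype over all genes, with Benjamini-Hochberg adjustment, and was tested on simulated data. The study ran DESeq2, which was an alternative (version 1.42.0). Standard errors are log2 fold changes divided by the square root of F. Ratios had 0.5 added to each count. Reads have no molecular identifiers, so depth speaks to counting error alone.

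Groups and replicate numbers came from the titles. Samples of the same number deviated together (correlations 0.131 to 0.597, mean 0.290, against a mean of -0.07 for other numbers, although for replicates 2, 3 and 5 the highest correlation with another number, 0.350, 0.446 and 0.294, exceeded that with their own of 0.349, 0.145 and 0.131), so the number was used as a block in an alternative. Libraries were separate, with chi-square per gene of at least 30.8 within groups. Sex for 1 alternative came from summed Y-linked genes. The sets of libraries follow a number that opens the column names of the normalised tables, whose meaning is not given in the sources used here.

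A further check of the labels is not reported here. Members and lists were chosen with earlier results of these data known. Full values were given for members called and for the gene of highest mean CPM in each locus of 2 or more, short values for those called by other fits, and values for the genes of each ratio. Asb4, Magel2, Mkrn3, Ube3a and Blcap were named after their values were seen. Sequences are RefSeq's (GRCm38.p6), with an entry for 37 members. H19, Sgce, Cdkn1c, Peg10, Rtl1, Nespas, Peg13, Impact and Trappc9 had none in the table used. Among the other marker lists edgeR called 0 genes of cortical neurons (2 at an unadjusted p under 0.05, DESeq2 2), 0 of hypothalamus and diencephalon (1, DESeq2 1), and 0 of meninges and mesenchyme, choroid plexus and hem, endothelium and pericyte, and erythroid cells (0, DESeq2 0).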

Additional observations from a re-analysis of the deposited data

Results flagged for a closer look

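In 84 groups of 5 values (42 tested genes in each genotype), 3 samples lay far from the others by Dixon's criterion, which takes the gap to the nearest sample as a share of the group's range, here on the scale of log2(CPM + 0.1), and has a limit of 0.71. Chance alone passes this limit in about 1 in 20 groups. Peg10 in control 3 was at 30.6 CPM while the other controls were at 51.4 to 61.7 CPM (gap 0.739 of the range, 2045 counts), and on the CPM scale its gap of 0.669 was under the limit. H13 in control 5 was at 125 CPM against 116 to 117 CPM in the others (gap 0.861, on the CPM scale 0.865, 7762 counts). Impact in Dot1l-cKO 4 was at 23.1 CPM against 27.5 to 28.7 CPM (gap 0.804, on the CPM scale 0.787, 1531 counts). None of these genes was called.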

How the results depend on the processing

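The 5 calls (3 increased, 2 decreased) became 3 (1, 2) with no low-count filter and 3 (1, 2) with sex as a covariate. At an adjusted p under 0.01 they became 2 (1, 1). In replicates 2 and 3 alone, 2 samples against 2, they became 0 (0, 0), and edgeR called 1 of all genes. There 12 members had an unadjusted p under 0.05 in the edgeR test. The share of all genes at that unadjusted threshold was not worked out, so the 12 cannot be read as an excess. Leaving out 1 sample gave 2 to 5 (1 to 4 increased, 1 to 2 decreased), 2 without Dot1l-cKO 1 or Dot1l-cKO 4. The replicate block ended the call of Ddc, added that of Kcnq1ot1 and changed no other call among members. For ratios the block was an exact sign-flip test of the 5 pairs, whose smallest p is 0.0625. Grb10 and Rasgrf1 kept their calls in each fit except that on replicates 2 and 3 alone.

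Of the 42 tested members, 9 turned sign in replicates 2 and 3 alone, 11 without these and 13 in some fit that left out 1 sample. Values follow for those among the 20 members followed through every fit, and for ratios. In replicates 2 and 3 alone they were H19 (-0.42), Ppp1r9a (0.071), Mest (-0.22), Cdkn1c (-0.35) and Gnas (-0.16). Without replicates 2 and 3 they were Peg3 (0.11), H13 (0.013), Dlk1 (0.25) and Igf2 (0.68), and the differences in ratio of Igf2/H19 (0.29), Dlk1/Meg3 (0.12), Usp29/Peg3 (-0.32) and Peg10/Sgce (0.074). Others were H19 with the header number block (-0.0086), Igf2 with sex (0.041), Cdkn1c with DESeq2 (-0.0020), H13 with at least 10 counts in every sample (0.00084), and Gnas with DESeq2 (-0.025), DESeq2 size factors (-0.021), no filter (-0.012), limma (-0.018) and no mitochondrial rRNA (-0.011). Leaving out 1 sample gave ranges across 0, among these 20 and the ratios, for Cdkn1c (-0.10 to 0.22), Gnas (-0.050 to 0.049), H13 (-0.041 to 0.028), H19 (-0.11 to 0.21), Igf2 (-0.60 to 0.34), Ppp1r9a (-0.079 to 0.014), Peg10/Sgce (-0.40 to 0.050) and Usp29/Peg3 (-0.12 to 0.13). The cause was not tested. Ddc rests on 26 to 130 counts per sample, and differences in Phlda2, Calcr and Slc22a18 were not detectable at this depth.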
